A study of Mus musculus with 9 samples.

Results

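Axon guidance ligands and receptors are the secreted or membrane-bound cues, and the receptors for them, that steer growing axons and migrating cells. They were chosen here by gene symbol, as the semaphorins, plexins, neuropilins, ephrins, Eph receptors, Slits, Robos, netrins, Unc5 receptors and Dcc. The symbol rule found 32 of the 11046 genes in the deposited count table. One of them, Unc50, matches only in its spelling and is not an Unc5 receptor, so 31 genes were described: 20 ligands and 11 receptors. The ligands were 4 secreted class 3 semaphorins (Sema3a, Sema3b, Sema3c and Sema3e), 8 membrane semaphorins (Sema4b, Sema4c, Sema4d, Sema4g, Sema5a, Sema6b, Sema6d and Sema7a), 5 ephrins (Efna1, Efna2, Efna4, Efna5 and Efnb1), Slit2, and the netrins Ntn3 and Ntn4. The receptors were 6 plexins (Plxna1, Plxna3, Plxna4, Plxnb1, Plxnb2 and Plxnd1), the neuropilins Nrp1 and Nrp2, the Eph receptors Epha2 and Ephb4, and the netrin receptor Unc5b. The table holds a selected set of genes, so members of these families without a row in it, the Robo receptors and Dcc among them, were not analysed here and were not taken as unexpressed.

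Poly(A) RNA of 3 cultured mouse tumour lines was sequenced, with 3 libraries (A, B and C) per line. By the labels, 482N1 is a non-small cell lung cancer line and B16F10-BrM is a brain-metastatic BRAF mutant melanoma line. E0771-BrM is a triple negative breast cancer line, and its name carries the same BrM suffix as that of the brain-metastatic melanoma line. All 9 libraries carry the genotype label WT and no treatment, and all media held FBS, penicillin/streptomycin and amphotericin B. The base medium was DMEM for 482N1 and for B16F10-BrM but RPMI with added HEPES for E0771-BrM, so for the latter the line and its medium cannot be told apart. Each line is 1 line, and the labels do not say whether its libraries came from separate cultures, so a p-value here measures only the spread between these libraries, which may be technical.

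Total counts ran from 7332390 to 9293348 per library. The labelled cell types were checked against marker genes. The 5 melanocyte markers in the table (Pmel, Dct, Tyrp1, Mitf and Gpnmb) summed to 24630 to 25484 CPM (counts scaled to a common library size) in B16F10-BrM. The keratins Krt8 and Krt18 summed to 7289 to 7908 CPM in 482N1 and 171 to 208 CPM in E0771-BrM, and to at most 0.125 CPM in B16F10-BrM. Of 6 lung epithelial markers only Foxa1 and Abca3 were in the table (61.6 to 64.1 CPM together in 482N1), and of 5 mammary markers only Areg, Erbb2 and Gata3 (47.9 to 64.2 CPM in E0771-BrM, but 91.7 to 110 CPM in 482N1). The immune markers Cd14 and Cd68 summed to 24.7 to 34.2 CPM in 482N1, 21.9 to 27.3 in E0771-BrM and at most 0.625 in B16F10-BrM. The endothelial marker Flt1 was at 87.2 to 101 CPM in 482N1, 5.04 to 6.86 in E0771-BrM and at most 0.125 in B16F10-BrM. The fibroblast markers Col1a2 and Pdgfrb summed to at most 2.66 CPM in every library. Traces of melanocyte transcripts differed between libraries: Dct had 142, 14 and 148 counts in 482N1 A, B and C, and 353, 29 and 263 in E0771-BrM. Dct itself had 140918 to 164357 counts in B16F10-BrM. The sum of the 5 melanocyte markers stood at 0.0110% to 0.112% of its B16F10-BrM level in 482N1. In E0771-BrM it stood at 0.408% to 0.643%. Library E0771-BrM B, with 29 Dct counts, still had a sum of 103 CPM, so the sum does not measure Dct alone. The part of melanocyte traces in the E0771-BrM levels near 0 of genes with counts in B16F10-BrM was not tested. A fit with library B alone for 482N1 and for E0771-BrM has 1 library in each of these lines and takes its spread from B16F10-BrM, so its lost calls (Sema4c in 2 comparisons, Efna5 and Plxna3) say nothing about the traces. No called guidance gene changed direction in it. Ribosomal RNA took 15.0% to 17.6% of the counts in 482N1 and 8.30% to 11.7% in the other lines. With it removed, as many guidance genes were called in each comparison and direction as before. In bulk samples, fewer cells of a type and less RNA per cell cannot be told apart.

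Class 3 semaphorins are secreted, and most bind a neuropilin and signal through a class A plexin. Sema3c, which binds neuropilins, is also a ligand of Plxnd1, and Sema3e binds Plxnd1 directly. Most membrane semaphorins bind plexins without a neuropilin. Ephrins are held on the cell surface, those of class A by a lipid anchor and those of class B by a transmembrane segment, and they bind Eph receptor tyrosine kinases on neighbouring cells. Slits act on Robo receptors, and netrins on Dcc and the Unc5 family. In adult tissue the same genes take part in vessel growth, cell adhesion and the contact between tumour cells and their surroundings.

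All 31 guidance genes differed over the 3 lines in the joint test (edgeR quasi-likelihood, adjusted p below 0.05), as did 92.1% of the 11037 genes tested, so the count says little about guidance genes as such. 482N1 had the highest mean level for 17 of the 31, and for 16 of them the difference from the second line passed the test. B16F10-BrM was highest for 7 (6 passed) and E0771-BrM for 7 (4 passed). B16F10-BrM was lowest for 17 (15 passed against the next line), E0771-BrM for 9 and 482N1 for 5 (all passed). The most frequent order, seen in 9 genes, was 482N1 above E0771-BrM above B16F10-BrM. These counts of highest line, lowest line and order are given without the shares over all genes. They therefore do not show whether guidance genes differ from other genes in this.

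**Figure D1:**
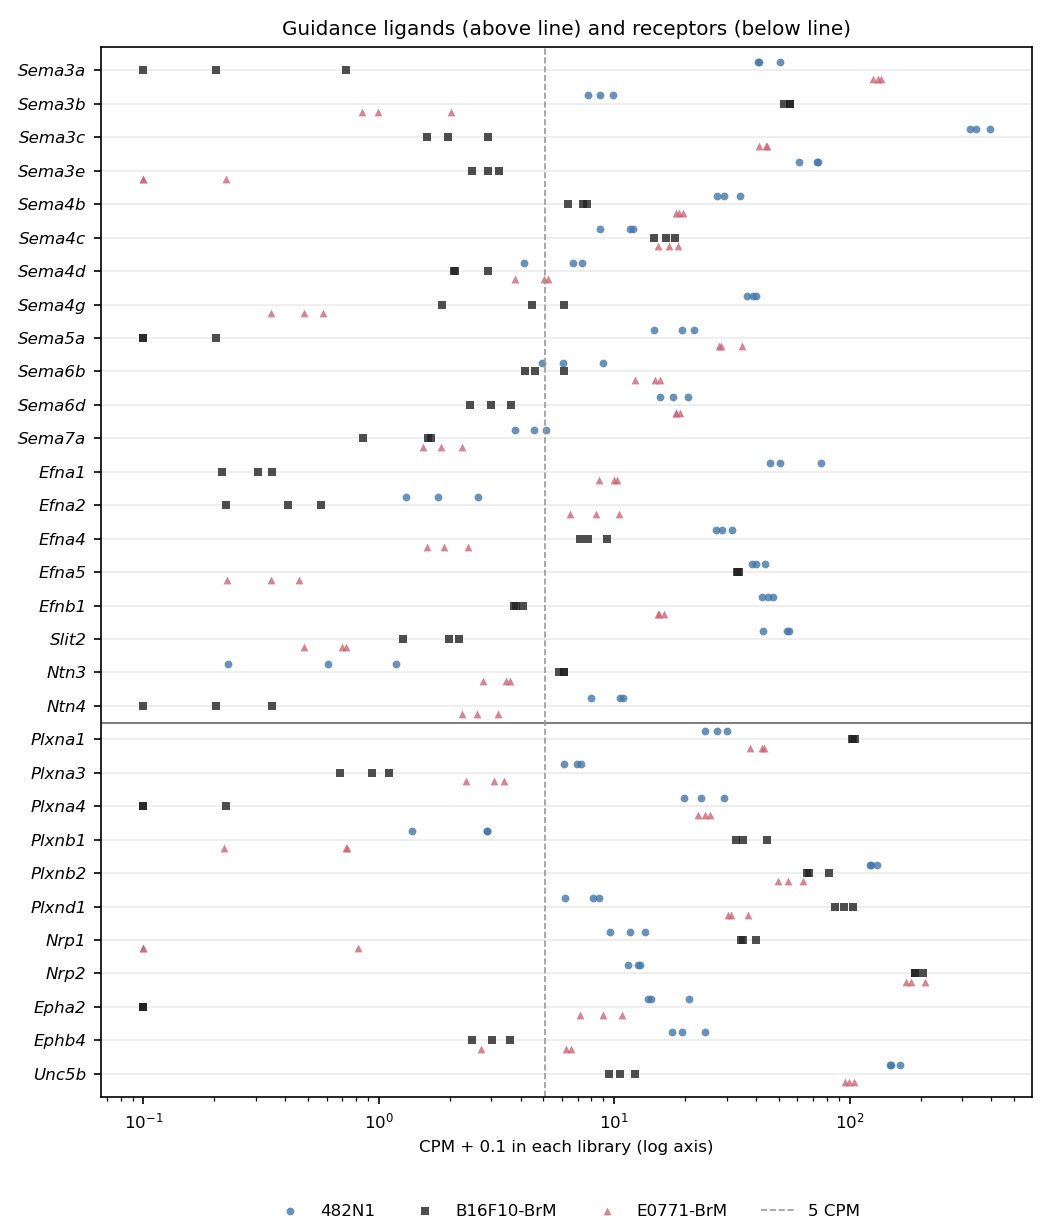
Level of each guidance gene in each of the 9 libraries, in CPM plus 0.1 on a log axis; each point is 1 library, colour and shape mark the line, and the dashed line marks 5 CPM. Ligands are above the solid line and receptors below it. Most ligands have their B16F10-BrM libraries at the left, while Plxna1, Plxnb1, Plxnd1 and Nrp1 have them at the right.

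The melanoma and lung lines shared a medium, which makes theirs the comparison with the fewest culture differences. In B16F10-BrM 8 of the 31 genes were higher and 22 lower, beside 38% of all genes higher and 39.9% lower. Sema6b was the 1 gene that did not pass. Among the ligands 3 were higher and 16 lower, and among the receptors 5 were higher and 6 lower. The median log2 fold change was -2.50 over the 31 genes and -0.04 over all genes tested. It was -2.55 for the ligands and -0.81 for the receptors. The 31-gene median was also -2.50 with Epha2, which had no counts in B16F10-BrM, set at its lower bound. Epha2 lay below the median either way, so this step could not have moved it.

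Between E0771-BrM and 482N1, 9 of the 31 genes stood higher in E0771-BrM, and 19 stood lower, beside 37.7% and 40.4% of all genes. Sema4d, Sema6d and Plxna4 did not pass. The median log2 fold change was -1.17, against -0.04 over all genes. Of the ligands 6 were higher and 12 lower, and of the receptors 3 were higher and 7 lower. This comparison shares its 482N1 libraries with the one before.

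Between E0771-BrM and B16F10-BrM, 16 of the 31 genes stood higher in E0771-BrM, and 12 stood lower, beside 37.2% and 36.5% of all genes. Sema4c, Sema7a and Nrp2 did not pass. The median was 0.80, against 0.02 over all genes, and 1.21 for the ligands against -0.04 for the receptors. Of the ligands 11 were higher and 7 lower, and the receptors split 5 to 5. The libraries of the 2 lines overlapped for Ephb4 although it was called, and for no other called gene in any of the 3 comparisons.

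**Figure D2:**
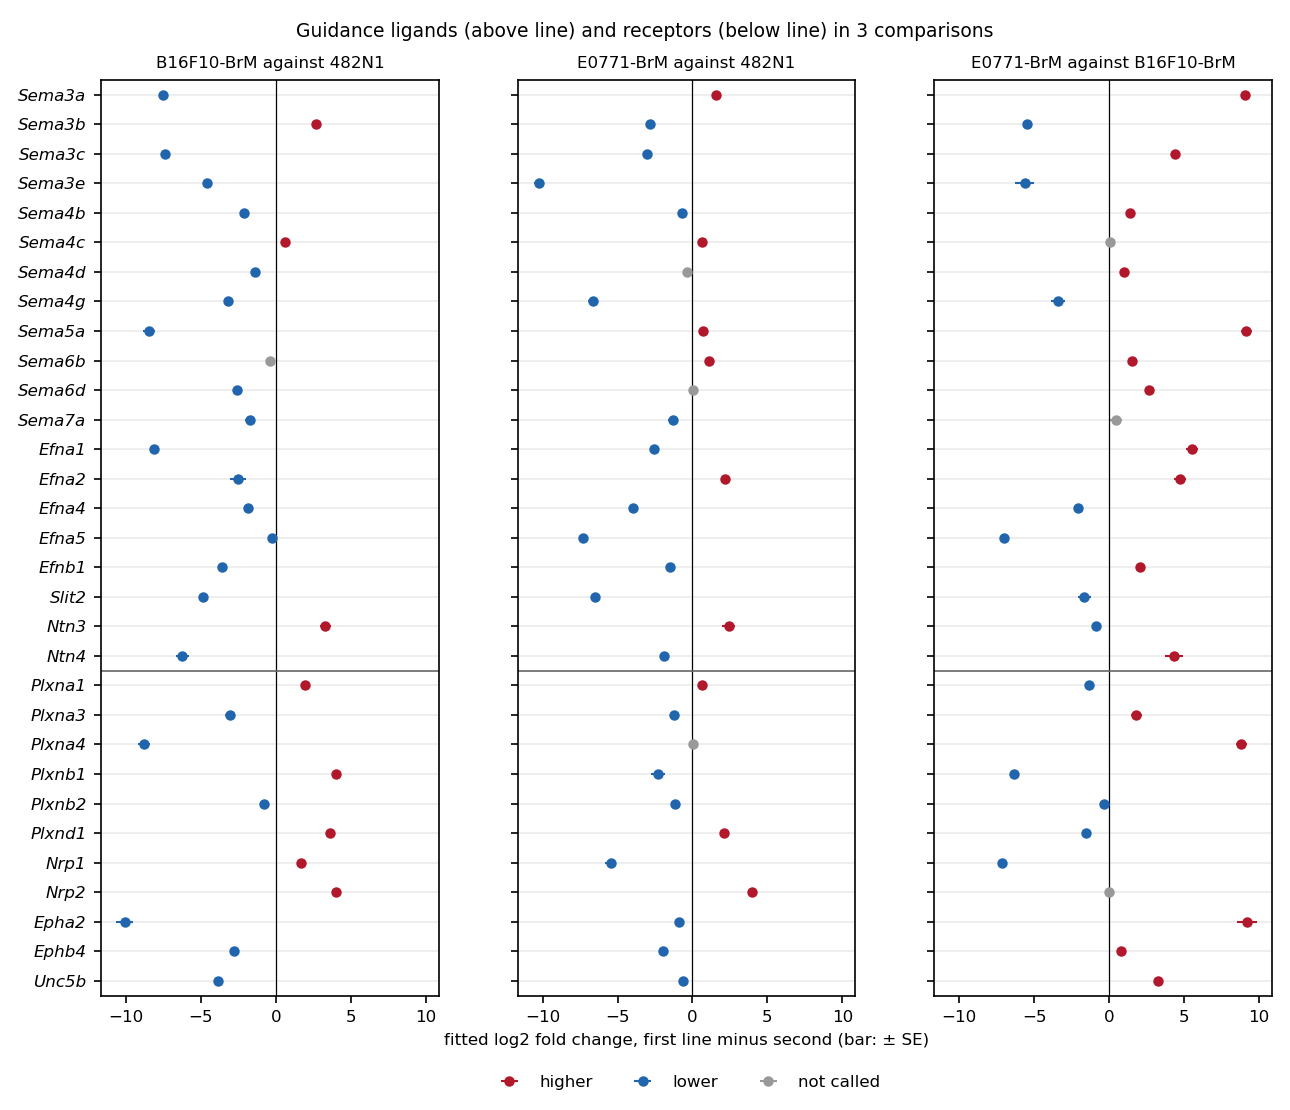
Fitted log2 fold change of each guidance gene in the 3 comparisons, with bars for ± 1 SE; red is called higher, blue called lower and grey not called (edgeR, adjusted p below 0.05). Ligands are above the line and receptors below it. In the left panel 16 of 20 ligands lie below 0 in blue, beside 39.9% of all genes called lower, and receptors lie on both sides.

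Each line had its own leading class 3 semaphorin. Per length, Sema3c was the highest in 482N1, Sema3b in B16F10-BrM and Sema3a in E0771-BrM. Sema3c, a ligand of neuropilins and Plxnd1, was at 343, 393 and 324 CPM in 482N1 libraries A, B and C, at 1.88, 1.51 and 2.8 in B16F10-BrM and at 41, 43.8 and 44.3 in E0771-BrM. The 3 lines did not overlap. The log2 fold change (± SE, here and below) was -7.41 ± 0.13 in B16F10-BrM and -3.04 ± 0.09 in E0771-BrM against 482N1, and 4.37 ± 0.16 between the latter lines (edgeR adjusted p = 1.23e-41, 1.09e-32 and 3.68e-29). Sema3a, the classical growth cone-collapsing ligand of Nrp1, had 41, 50.4 and 40.7 CPM in 482N1, 0.104, 0.627 and 0 in B16F10-BrM and 125, 132 and 136 in E0771-BrM. It was thus near 0 in the melanoma line and above 482N1 in every E0771-BrM library. Its log2 fold change in E0771-BrM against 482N1 was 1.57 ± 0.10 (edgeR adjusted p = 8.72e-18). From 6 counts in B16F10-BrM, the 482N1 level was 193 (95% counting interval 88.2 to 526) and the E0771-BrM level 571 (95% counting interval 262 to 1558) times as high. Sema3e, the direct ligand of Plxnd1, had 60.9, 72.9 and 72.6 CPM in 482N1, 3.13, 2.38 and 2.8 in B16F10-BrM and 0, 0 and 0.125 in E0771-BrM. A single count over the 3 E0771-BrM libraries put 482N1 at 1671 (95% counting interval 299 to 66025) and B16F10-BrM at 67.6 (95% counting interval 11.8 to 2708) times that level. Sema3b, which binds both neuropilins, was highest in the melanoma line, with 55.9, 55.5 and 52.7 CPM in B16F10-BrM, 7.61, 9.75 and 8.62 in 482N1 and 0.888, 1.92 and 0.748 in E0771-BrM. No library of one line reached another line, and the log2 fold change was 2.65 ± 0.14 in B16F10-BrM against 482N1 and -2.84 ± 0.26 in E0771-BrM against 482N1 (edgeR adjusted p = 2.17e-22 and 4.97e-14).

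Of the 8 membrane semaphorins, 6 had less RNA in B16F10-BrM than in 482N1, Sema4c was higher and Sema6b did not pass. Over all genes, 39.9% were lower and 38% higher in this comparison. Sema5a, which carries thrombospondin repeats beside its semaphorin domain, had 14.7, 19.3 and 21.8 CPM in 482N1, 0.104, 0 and 0 in B16F10-BrM and 28.4, 34.8 and 27.8 in E0771-BrM. The melanoma line had 1 count in all, so 482N1 stood at 487 (95% counting interval 87 to 19278) and E0771-BrM at 795 (95% counting interval 142 to 31455) times its level. Between E0771-BrM and 482N1 the log2 fold change was 0.71 ± 0.15 (edgeR adjusted p = 3.01e-05). Sema4g, a ligand of Plxnb2, had 36.6, 38.8 and 39.8 CPM in 482N1, 6.04, 4.39 and 1.75 in B16F10-BrM and 0.381, 0.48 and 0.249 in E0771-BrM. All of its 482N1 libraries lay above the other lines, with log2 fold changes of -3.22 ± 0.20 and -6.64 ± 0.31 (edgeR adjusted p = 4.07e-17 and 5.15e-21). Sema6d, a class 6 ligand of Plxna1, had 17.7, 20.5 and 15.6 CPM in 482N1, 18.9, 18.1 and 18.2 in E0771-BrM and 3.54, 2.89 and 2.33 in B16F10-BrM. The first pair of lines overlapped and did not pass the test (0.04 ± 0.15, edgeR adjusted p = 0.826), while B16F10-BrM was lower than 482N1 with a log2 fold change of -2.60 ± 0.20. Sema6b, a ligand of Plxna4, was highest in E0771-BrM at 15.5, 12.1 and 14.8 CPM, against 5.93, 4.81 and 8.87 in 482N1 and 6.04, 4.52 and 4.08 in B16F10-BrM. Libraries of the last 2 lines overlapped (-0.41 ± 0.23, edgeR adjusted p = 0.104), and E0771-BrM was above 482N1 by 1.11 ± 0.20 on the log2 scale.

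Sema4c, a ligand of Plxnb2, had the smallest differences between the lines of the 31 genes, with 11.6, 11.9 and 8.62 CPM in 482N1, 14.7, 16.6 and 18.1 in B16F10-BrM and 17, 15.2 and 18.6 in E0771-BrM. The libraries of B16F10-BrM and E0771-BrM overlapped and lay above those of 482N1. The log2 fold changes against 482N1 were 0.61 ± 0.16 and 0.66 ± 0.16 (edgeR adjusted p = 7.11e-04 and 3.22e-04). With library B alone for 482N1 and for E0771-BrM, 1 library a line with the spread taken from B16F10-BrM, the log2 fold changes were 0.46 and 0.36 and did not pass (adjusted p = 0.0595 and 0.247). Sema4d, the ligand of Plxnb1, had 6.58, 7.22 and 4.06 CPM in 482N1, 1.98, 2.01 and 2.8 in B16F10-BrM and 3.68, 4.92 and 5.11 in E0771-BrM. B16F10-BrM was the lowest line. 482N1 and E0771-BrM overlapped and did not pass the test (-0.38 ± 0.26, edgeR adjusted p = 0.169), but they did without 482N1 C (-0.59, adjusted p = 0.0427). Sema4b had means of 30.1 ± 3.56 CPM in the lung line, 18.8 ± 0.684 in the breast line and 7.05 ± 0.684 in the melanoma line (SD, n = 3), and every step in that order was called. Sema7a, a lipid-anchored semaphorin, stayed at or below 5.03 CPM in every library and was highest in 482N1.

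Of 5 ephrins, 5 were lower in the melanoma line than in the lung line, and 4 of the 5 were lower in E0771-BrM than in 482N1. Over all genes, 39.9% and 40.4% were lower in these comparisons. Efna1, a ligand of Epha2, had 50.4, 46 and 75.2 CPM in 482N1, 0.208, 0.251 and 0.117 in B16F10-BrM and 10.2, 8.52 and 9.85 in E0771-BrM. The 3 lines stood apart, with 5 counts in all in B16F10-BrM, against which 482N1 stood at 298 (95% counting interval 128 to 920.2) and E0771-BrM at 49.6 (95% counting interval 21 to 154) times the level. Efna5, which binds several EphA receptors, had 38.3, 39.7 and 43.6 CPM in 482N1, 33.3, 33.7 and 33.1 in B16F10-BrM and 0.127, 0.36 and 0.249 in E0771-BrM. It was near the 482N1 level in the melanoma line and near 0 in the breast line, where 6 counts put 482N1 at 164 (95% counting interval 75 to 447) and B16F10-BrM at 135 (95% counting interval 61.7 to 368) times the level. The small difference between B16F10-BrM and 482N1 (-0.28 ± 0.11, edgeR adjusted p = 0.0223) was lost without 482N1 C, without B16F10-BrM A or without B16F10-BrM C (adjusted p = 0.105, 0.0508 and 0.0541). Efna4, another class A ephrin, was highest in 482N1, with 28.6, 27 and 31.4 CPM in 482N1, 7.08, 7.65 and 9.2 in B16F10-BrM and 2.28, 1.8 and 1.5 in E0771-BrM, and its lines did not overlap. Efna2 differed from the other class A ephrins by being highest in E0771-BrM, at 8.25, 6.36 and 10.3 CPM against 1.68, 1.2 and 2.54 in 482N1 and 0.313, 0.125 and 0.466 in B16F10-BrM. Its log2 fold change in E0771-BrM was 2.2 ± 0.30 against 482N1 and 4.70 ± 0.41 against B16F10-BrM (edgeR adjusted p = 6.88e-09 and 1.73e-14). Efnb1, the class B ephrin in the table, had means of 44.7 ± 2.24, 3.8 ± 0.194 and 15.6 ± 0.554 CPM (SD, n = 3) in 482N1, B16F10-BrM and E0771-BrM, all apart.

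Slit2, the ligand of Robo receptors, was highest in 482N1. Its level was 53.9, 55.2 and 42.6 CPM there, 2.08, 1.88 and 1.17 in B16F10-BrM and 0.381, 0.60 and 0.623 in E0771-BrM. Log2 fold changes against 482N1 were -4.87 ± 0.19 and -6.52 ± 0.24 (edgeR adjusted p = 1.41e-27 and 8.68e-29), and the 2 low lines also differed (-1.65 ± 0.43, adjusted p = 6.14e-04). The netrins ran in opposite directions. Ntn4, a laminin-binding netrin, had 10.4, 10.8 and 7.86 CPM in 482N1, 2.16, 2.52 and 3.12 in E0771-BrM and 0.104, 0.251 and 0 in B16F10-BrM, where 3 counts put 482N1 at 84.8 (95% counting interval 28.7 to 414) times the level. Ntn3 had 0.129, 1.08 and 0.507 CPM in 482N1, 6.04, 6.02 and 5.71 in B16F10-BrM and 2.66, 3.36 and 3.49 in E0771-BrM. It was lowest in 482N1, with log2 fold changes of 3.31 ± 0.38 in B16F10-BrM and 2.41 ± 0.43 in E0771-BrM (edgeR adjusted p = 9.05e-11 and 1.80e-06). In the GENCODE vM21 annotation, 89 bases of Ntn3 exon overlap Tbc1d24 on the same strand, 1.77% of its length, so a small part of its reads could belong to either gene.

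Of the 6 plexins, 3 were higher and 3 lower in B16F10-BrM than in 482N1. Over all genes the split was also nearly even, with 38% higher and 39.9% lower. Plxnb1, the receptor of Sema4d, had 32.9, 44.3 and 35 CPM in B16F10-BrM, 1.29, 2.77 and 2.79 in 482N1 and 0.634, 0.12 and 0.623 in E0771-BrM. Every B16F10-BrM library lay above the others, with a log2 fold change of 4.01 ± 0.21 against 482N1 (edgeR adjusted p = 7.39e-22), and E0771-BrM lay below both (-6.31 ± 0.28 against B16F10-BrM, adjusted p = 1.47e-24). Plxnd1, the receptor of Sema3e, had 103, 86.4 and 94 CPM in B16F10-BrM, 36.8, 31.1 and 30.3 in E0771-BrM and 6.06, 8.55 and 7.99 in 482N1. The order was thus the inverse of its ligand Sema3e between 482N1 and B16F10-BrM, with log2 fold changes of 3.64 ± 0.13 and 2.11 ± 0.14 against 482N1. Plxna1, a signalling partner of neuropilins, had 105, 103 and 102 CPM in B16F10-BrM, 42.4, 43.3 and 37.8 in E0771-BrM and 29.9, 27.1 and 24.2 in 482N1, with no overlap. Plxna4, also a neuropilin partner and the receptor of Sema6b, had 23.2, 19.6 and 29 CPM in 482N1, 25.5, 24.2 and 22.6 in E0771-BrM and 0, 0.125 and 0 in B16F10-BrM. The first pair of lines overlapped (0.01 ± 0.15, edgeR adjusted p = 0.95), while B16F10-BrM had 1 count in all, so that 482N1 stood at 625 (95% counting interval 112 to 24713) and E0771-BrM at 630.2 (95% counting interval 113 to 24934) times its level. Plxna3, a class A plexin, had 7.09, 6.02 and 6.84 CPM in 482N1, 3.3, 3.0 and 2.24 in E0771-BrM and 0.833, 1.0 and 0.583 in B16F10-BrM. All lines stood apart. Its log2 fold change in E0771-BrM against 482N1 was -1.22 ± 0.27, and -1.0 with library B alone for each of these lines. Plxnb2, the receptor of Sema4c and Sema4g, was high in every line, at 130.4, 122 and 123 CPM in 482N1, 81.3, 66 and 67.1 in B16F10-BrM and 62.9, 49.3 and 54.5 in E0771-BrM. It was highest in 482N1, and the log2 fold change against that line was -0.81 ± 0.09 in B16F10-BrM and -1.17 ± 0.09 in E0771-BrM.

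The neuropilins, coreceptors for class 3 semaphorins and for VEGF, were both higher in B16F10-BrM than in 482N1 and parted in E0771-BrM. Nrp2 had 11.4, 12.8 and 12.5 CPM in 482N1, 189, 189 and 204 in B16F10-BrM and 209, 174 and 183 in E0771-BrM. The latter lines overlapped (-0.04 ± 0.08, edgeR adjusted p = 0.609), and both lay above 482N1, by log2 fold changes of 3.99 ± 0.10 and 3.94 ± 0.10 (edgeR adjusted p = 1.69e-35 and 4.72e-35). Nrp1 had 11.6, 13.4 and 9.51 CPM in 482N1, 35.2, 40.0 and 34.4 in B16F10-BrM and 0, 0.72 and 0 in E0771-BrM. Of its 6 counts in E0771-BrM, all were in library B, and their source was not tested. Against that level 482N1 stood at 46.5 (95% counting interval 21.1 to 128) and B16F10-BrM at 147 (95% counting interval 67.3 to 402) times as high, and the log2 fold change in B16F10-BrM against 482N1 was 1.66 ± 0.17 (adjusted p = 1.18e-11).

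The Eph receptors were highest in 482N1. Epha2, which binds class A ephrins, had 20.8, 14.2 and 13.8 CPM in 482N1 and 10.7, 7.08 and 8.85 in E0771-BrM, and no count in any B16F10-BrM library. Against a floor of 3 counts over the B16F10-BrM libraries, its level was at least 141-fold higher in 482N1 and at least 77.0-fold higher in E0771-BrM. Between E0771-BrM and 482N1 the log2 fold change was -0.88 ± 0.20 (edgeR adjusted p = 9.43e-05). Ephb4, whose main ligand is ephrin-B2, had means of 20.3 ± 3.48, 2.94 ± 0.559 and 5.07 ± 2.13 CPM (SD, n = 3) in 482N1, B16F10-BrM and E0771-BrM. Its E0771-BrM libraries spread from 2.62 to 6.47 CPM and overlapped those of B16F10-BrM, and the call between them (0.80 ± 0.28, adjusted p = 0.00962) was lost without B16F10-BrM A, E0771-BrM A or E0771-BrM B (0.0559, 0.0848 and 0.0673). Unc5b, a repulsive netrin receptor, had 164, 149 and 149 CPM in 482N1, 99.2, 95.4 and 104 in E0771-BrM and 9.38, 12.2 and 10.5 in B16F10-BrM. The lines stood apart, with log2 fold changes against 482N1 of -3.86 ± 0.11 and -0.63 ± 0.08 (edgeR adjusted p = 2.88e-34 and 2.51e-09).

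Promoters were compared for genes lower, and for genes higher, in B16F10-BrM than in 482N1. Neither set shared an order over all 3 lines. The 6 shown were chosen after the values were seen: Epha2, Sema5a and Ntn4, with at most 3 counts in B16F10-BrM (Plxna4, the fourth such gene, has no entry in the sequence table), and Plxnb1, Plxnd1 and Nrp2, the receptors with the largest B16F10-BrM increases over 482N1. They are RefSeq sequences of build GRCm38.p6, from 250 bases before to 50 bases after the annotated start, written 5′ to 3′ on the gene's strand. Capitals mark GC boxes (GGGCGG or its complement CCGCCC).
Epha2: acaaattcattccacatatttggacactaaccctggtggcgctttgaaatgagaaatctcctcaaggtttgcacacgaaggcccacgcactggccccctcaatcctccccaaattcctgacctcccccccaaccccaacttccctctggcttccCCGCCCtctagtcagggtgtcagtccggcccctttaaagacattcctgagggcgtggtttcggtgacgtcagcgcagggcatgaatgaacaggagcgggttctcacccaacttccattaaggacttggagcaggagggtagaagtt
Sema5a: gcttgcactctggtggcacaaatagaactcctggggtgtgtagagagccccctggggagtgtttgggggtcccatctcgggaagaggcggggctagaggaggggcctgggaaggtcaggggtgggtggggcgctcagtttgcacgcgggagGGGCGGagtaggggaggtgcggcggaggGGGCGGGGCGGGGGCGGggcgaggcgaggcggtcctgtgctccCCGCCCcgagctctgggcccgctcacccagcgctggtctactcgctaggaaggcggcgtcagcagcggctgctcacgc
Ntn4: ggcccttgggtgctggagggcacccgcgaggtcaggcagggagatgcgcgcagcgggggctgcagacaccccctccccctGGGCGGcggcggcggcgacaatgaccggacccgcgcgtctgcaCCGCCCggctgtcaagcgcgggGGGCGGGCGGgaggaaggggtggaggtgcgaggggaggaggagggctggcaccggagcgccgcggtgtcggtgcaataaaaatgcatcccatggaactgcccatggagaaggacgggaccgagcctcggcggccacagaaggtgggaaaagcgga
Plxnb1: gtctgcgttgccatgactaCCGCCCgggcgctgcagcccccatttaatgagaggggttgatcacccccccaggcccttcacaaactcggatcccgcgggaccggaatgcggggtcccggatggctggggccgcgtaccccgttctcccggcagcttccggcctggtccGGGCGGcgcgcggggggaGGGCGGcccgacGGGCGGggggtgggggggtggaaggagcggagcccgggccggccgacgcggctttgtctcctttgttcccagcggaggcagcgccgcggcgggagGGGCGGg
Plxnd1: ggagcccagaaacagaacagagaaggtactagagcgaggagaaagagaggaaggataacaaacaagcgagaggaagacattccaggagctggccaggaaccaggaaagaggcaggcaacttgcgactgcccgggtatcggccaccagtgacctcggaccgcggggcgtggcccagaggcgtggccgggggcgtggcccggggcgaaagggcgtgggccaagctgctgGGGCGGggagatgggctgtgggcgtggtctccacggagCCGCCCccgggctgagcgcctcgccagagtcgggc
Nrp2: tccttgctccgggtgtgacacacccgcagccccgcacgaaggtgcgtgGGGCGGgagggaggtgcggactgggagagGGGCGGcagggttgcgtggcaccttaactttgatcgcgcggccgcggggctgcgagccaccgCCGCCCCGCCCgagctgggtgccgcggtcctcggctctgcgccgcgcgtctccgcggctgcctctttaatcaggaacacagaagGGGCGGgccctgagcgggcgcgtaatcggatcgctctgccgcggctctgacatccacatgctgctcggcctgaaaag

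Their positions are chr4:141300971-141301270 (Epha2, plus strand), chr15:32244563-32244862 (Sema5a, plus strand), chr10:93640799-93641098 (Ntn4, plus strand), chr9:109095186-109095485 (Plxnb1, plus strand), chr6:115994956-115995255 (Plxnd1, minus strand) and chr1:62703067-62703366 (Nrp2, plus strand). The GC share was 54.7% for Epha2, 71.3% for Sema5a and 72% for Ntn4, and 74.7%, 67% and 70.7% for Plxnb1, Plxnd1 and Nrp2. GC boxes numbered 1, 5 and 4 in the first set and 5, 2 and 5 in the second, so both sets held them. Over 36 promoters of 28 guidance genes, 30 (83.3%) held a GC box, beside 65.1% of the 10999 promoters of genes in the count table and 35.7% of all 32851. The median GC share was 66.2% for guidance promoters and 61.3% for promoters of counted genes. The M-box core CATGTG, a sequence bound by MITF, was in 3 of 36 guidance promoters (8.33%) and in 8.03% of promoters of counted genes, and those 3 were of Ephb4, Nrp2 and Sema3e. AP-1 sites (TGANTCA) were in 3 (8.33%, beside 4.85%), E-boxes (CACGTG) in 3 (8.33%, beside 10.3%) and TATA boxes (TATAAA) in 1 (2.78%, beside 6.78%), all searched on both strands. None of these other matches overlapped a GC box. Sema3b, Plxna1 and Plxna4 were not among the promoters used here.

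Levels of different genes can be compared only per length, which was taken from the exon union of each gene in GENCODE vM21 (build GRCm38, not the build of the counts). Among ligands, the highest CPM per kilobase was Sema3c in 482N1 (64.3), Sema3b in B16F10-BrM (14.8) and Sema3a in E0771-BrM (21.0). Efna1 (31.3 CPM per kilobase) and Efna4 (18.1) came next in 482N1, Efna5 (8.28) and Efna4 (4.99) in B16F10-BrM, and Sema3c (7.83) and Efna1 (5.19) in E0771-BrM. Among receptors, Unc5b (26.2) and Plxnb2 (19.1) led in 482N1, Nrp2 (18.7) and Plxnd1 (13.7) in B16F10-BrM, and Nrp2 (18.1) and Unc5b (17.0) in E0771-BrM. Per length, Nrp2 thus was at rank 1 in B16F10-BrM and E0771-BrM and at rank 8 of 11 receptors in 482N1. Plxnb1 was the lowest receptor in 482N1 and in E0771-BrM, at 0.264 and 0.0531 CPM per kilobase, and at rank 6 in B16F10-BrM.

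**Figure D3:**
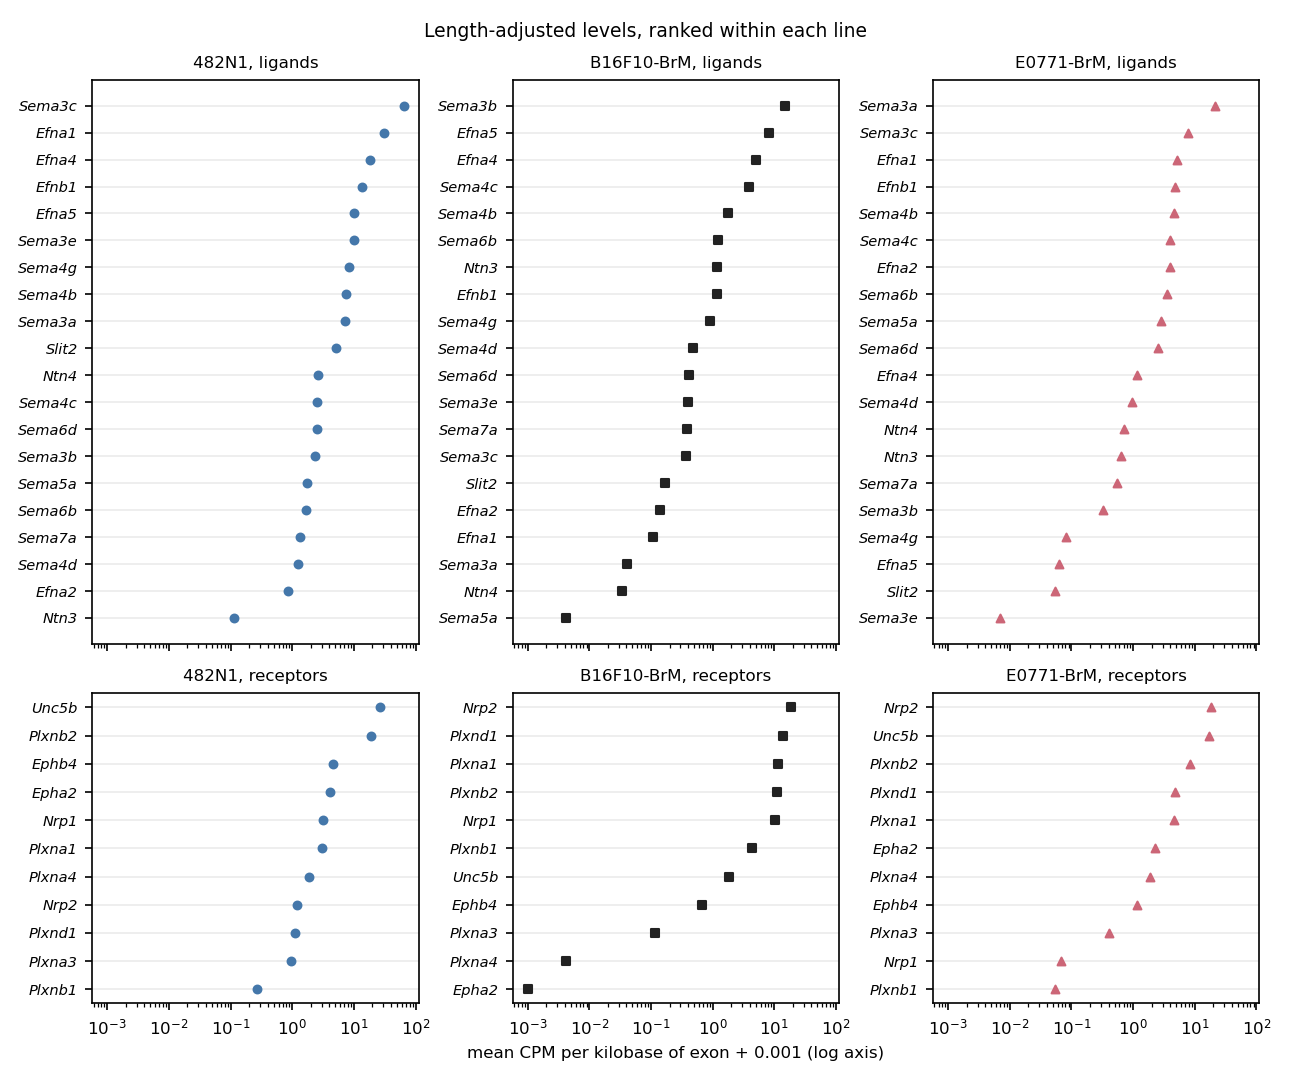
Mean CPM per kilobase of exon plus 0.001, on a log axis, for the 20 ligands (upper panels) and 11 receptors (lower panels), ranked within each line. Sema3c leads the ligands in 482N1, Sema3b in B16F10-BrM and Sema3a in E0771-BrM, and Epha2 is at the bottom of the B16F10-BrM receptors with no counts.

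A partner was taken as present in a line from a mean of 5 CPM, a limit that was set, not estimated, and that is not adjusted for length. By it, 17 of 20 ligands were present in 482N1, 6 in the melanoma line and 10 in the breast line, while of the 11 receptors 10, 7 and 8 were. The share of all genes at this limit in each line is not given. These counts, and those of pairs below, therefore describe the members and are not set against other genes. The members held 24 known ligand and receptor pairs with both partners in the table: 18 of semaphorins, 4 of ephrins with Epha2 and 2 of netrins with Unc5b. Efnb1 and Ephb4 were not counted as a pair. The pairs share partners and are not independent. A class 3 semaphorin with a plexin was counted whether or not its neuropilin was present, as for Sema3a with Plxna1 and with Plxna4 in E0771-BrM. Both partners were present for 21 pairs in the lung line, 4 in the melanoma line and 10 in the breast line. Pairs with only the receptor numbered 2 in 482N1, 12 in the melanoma line and 8 in the breast line, and those with only the ligand 1, 2 and 4.

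The 4 pairs of B16F10-BrM were Sema3b with Nrp1, Sema3b with Nrp2, Sema4c with Plxnb2, and Ntn3 with Unc5b. In that line Nrp1, Nrp2, Plxna1 and Plxnd1 were present without Sema3a, Sema3c or Sema3e. In E0771-BrM, Sema3a (mean 131 CPM) had Plxna1 and Plxna4 present, but not the coreceptor Nrp1 (0.240 CPM), and Sema3c had Nrp2 and Plxnd1 but not Nrp1. Sema3e was absent by this limit beside Plxnd1 in B16F10-BrM (2.77 CPM) and in E0771-BrM (0.0416 CPM). Of the Epha2 pairs, those with Efna1, Efna4 and Efna5 were present in 482N1, those with Efna1 and Efna2 in E0771-BrM, and none in B16F10-BrM, which had Efna4 and Efna5 without the receptor. Sema4c with Plxnb2 was the 1 pair present in all 3 lines, and Sema4d with Plxnb1 the 1 pair present in none. The counts depended on the limit: from 1 CPM they were 12 in B16F10-BrM and 17 in E0771-BrM, and from 20 CPM 3 in 482N1, 2 in the melanoma line and 5 in the breast line. With a limit of 20 CPM, 482N1 therefore no longer had the most pairs.

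**Figure D4:**
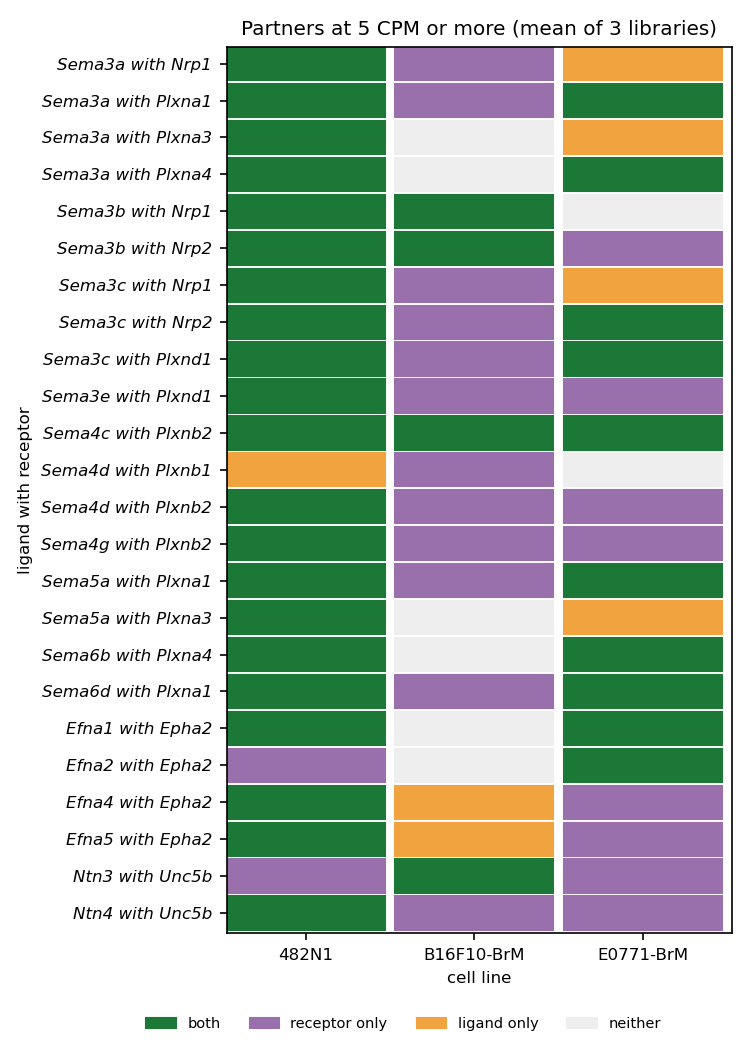
The 24 ligand and receptor pairs (rows) in the 3 lines (columns), with colour for which partners reached a mean of 5 CPM over 3 libraries. Green (both) fills 21 cells of the 482N1 column, 4 of the B16F10-BrM column and 10 of the E0771-BrM column, and purple (receptor only) is the most frequent colour in B16F10-BrM with 12.

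Other genes of these pathways were taken from 4 lists of textbook members, whose counts of called genes are to be read beside those over all genes: 38% higher and 39.9% lower in B16F10-BrM against 482N1, 37.7% and 40.4% in E0771-BrM against 482N1, and 37.2% and 36.5% in E0771-BrM against B16F10-BrM. Of 26 semaphorin and plexin signalling genes in the table (of 28 listed), 11 (42.3%) were higher and 13 (50%) lower in B16F10-BrM than in 482N1, with a median log2 fold change of -0.24. Fes, a kinase downstream of plexins, had no counts in B16F10-BrM and was at least 115-fold higher in 482N1. Mical2, an actin-oxidising enzyme, and Rnd1, a plexin-binding GTPase, were lower in B16F10-BrM too, with 9 and 4 counts in all and 482N1 at 69.4 (95% counting interval 36.3 to 153) and 21.3 (95% counting interval 7.99 to 80.1) times the level. In E0771-BrM against 482N1, 11 (42.3%) were higher and 11 (42.3%) lower (median 0.14). The largest were Dpysl3 (-5.22 ± 0.29) and Crmp1 (3.57 ± 0.18), both collapsin response mediators, and the kinase Fyn (3.09 ± 0.13, edgeR adjusted p = 3.32e-26). Between E0771-BrM and B16F10-BrM, 14 (53.8%) were higher and 7 (26.9%) lower (median 0.38).

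Of 22 ephrin and Eph signalling genes, 5 (22.7%) were higher and 13 (59.1%) lower in B16F10-BrM than in 482N1 (median -0.29). In E0771-BrM 7 (31.8%) and 11 (50%) were so against 482N1 (median -0.30), and 12 (54.5%) and 8 (36.4%) against B16F10-BrM (median 0.45). Ngef, an exchange factor downstream of EphA receptors, had no counts in B16F10-BrM, like Epha2, and was at least 82.6-fold higher in 482N1 and 27.3-fold in E0771-BrM. Tiam1, a Rac exchange factor, was higher in B16F10-BrM (3.15 ± 0.22, edgeR adjusted p = 3.09e-18). Chn2, a Rac-inactivating protein, had no counts in E0771-BrM and was at least 406-fold higher in 482N1, while its relative Chn1 was higher in E0771-BrM (3.40 ± 0.23, adjusted p = 4.61e-18). Of 29 Slit, Robo, netrin and DCC signalling genes, 11 (37.9%) were higher and 14 (48.3%) lower in B16F10-BrM (median -0.02), and 9 (31%) and 17 (58.6%) in E0771-BrM (median -0.58), both against 482N1. Between E0771-BrM and B16F10-BrM the counts were 12 (41.4%) and 11 (37.9%), with a median of 0.10. Pak1, a Rac and Cdc42 effector kinase, had no counts in B16F10-BrM and was at least 1289-fold higher in 482N1 and at least 324-fold higher in E0771-BrM. The Slit-Robo GTPase-activating proteins parted: Srgap3 had 3 counts in B16F10-BrM and Srgap1 had 2 in E0771-BrM, with 482N1 at 450.2 (95% counting interval 154 to 2186) and 242 (95% counting interval 66.7 to 2007) times the level. Enah, an actin regulator of the netrin pathway, was lower in E0771-BrM than in 482N1 (-5.23 ± 0.14, edgeR adjusted p = 2.03e-34).

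Other guidance molecules were measured for 14 of 38 listed genes. In B16F10-BrM 4 (28.6%) were higher and 9 (64.3%) lower than in 482N1 (median -1.38). In E0771-BrM 5 (35.7%) and 6 (42.9%) were so against 482N1 (median 0.02), shares near those over all genes, and 7 (50%) and 5 (35.7%) against B16F10-BrM (median 0.57). The cell adhesion molecule Nrcam had a mean of 139 CPM in B16F10-BrM, 2.11 in E0771-BrM and 0.505 in 482N1 (8.07 ± 0.21 against 482N1, edgeR adjusted p = 1.05e-33). Its relative L1cam was lowest in 482N1, at 8 counts in all, against which B16F10-BrM stood at 34.7 (95% counting interval 17.4 to 81.1) and E0771-BrM at 114 (95% counting interval 57.4 to 264) times the level. Flrt2, a ligand of Unc5 receptors, had no counts in B16F10-BrM and 1 in 482N1 beside a mean of 43.6 CPM in E0771-BrM, which was at least 381-fold above B16F10-BrM. Tenm4, a teneurin, was lower in E0771-BrM than in 482N1 (-4.89 ± 0.15, edgeR adjusted p = 8.13e-32), and Ptk7 had no counts in B16F10-BrM and was at least 81.2-fold higher in 482N1.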

How the data were processed

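The authors deposited raw read counts per gene symbol for 9 libraries; nothing in the sources used here says how reads were counted, with which annotation or strand setting, or how the genes in the table were chosen. Poly(A) RNA was made into stranded TruSeq libraries, per the labels' protocols. FastQC, TopHat2 2.0.10, Bowtie 1.0.0, SAMtools 0.1.19, Cufflinks 2.2.1 and the build GRCm39 are named in the submitters' processing notes, without their roles.

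The members, lists and pairs were chosen with earlier results of these data known. The analysis used edgeR 4.0.16 in R 4.3.3: filterByExpr removed 9 of 11046 genes, libraries were scaled by TMM, and 1 robust quasi-likelihood model, with each line as a coefficient, took in the 9 libraries together. Comparisons were tested 2-sided, over all 11037 genes, with Benjamini-Hochberg adjustment and a threshold of 0.05. The fit was tested on simulated data in which few genes were changed, and only in B16F10-BrM. Most genes differed between the real lines, so the simulation does not give the error rate of the calls here. Levels are TMM-normalised CPM. The SE of a log2 fold change was derived from the F test, as the size of the change divided by the square root of F. Fitted fold changes of genes with few counts depend on the default prior count of the edgeR fit and are no bounds. Such genes therefore have a ratio with a 95% interval of the counts, or a bound against a floor of 3 counts over the line. Both cover counting error only. Unc50 was called in 2 comparisons and is not described. Library values were given for the 10 called members with the largest change per comparison and for partners of pairs present in at least 1 line, and up to 3 genes per pathway list and comparison were named. Antisense or overlapping exons of other genes covered at most 10.7% of a member's exon length. Alternatives were DESeq2 1.42.0, limma-voom 3.58.1, other scalings, filters, sample sets, a 2-fold null and each library left out.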

Additional observations from a re-analysis of the deposited data

How the results depend on the processing

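Of the counts of members called and of pairs present, those that moved by over 1.5 times did so under 2 choices. Tested against a 2-fold null (glmTreat in edgeR), 5 members in place of 9 were called higher in E0771-BrM than in 482N1. Pairs with both partners present numbered 12 in B16F10-BrM and 17 in E0771-BrM from 1 CPM, 12 in 482N1 from 10 CPM, and 3, 2 and 5 in 482N1, B16F10-BrM and E0771-BrM from 20 CPM. The other scalings, filters, tools and sample sets, and each library left out, gave counts within 1.5 times of the main ones. Of the single-gene results, 1825 kept their side of the threshold, 29 lost a call and 3 gained one. No called result changed direction. Results not called under either setting could change sign and were counted among the 1825, as for Sema6d in E0771-BrM against 482N1 (-0.17 to 0.15). Efna5 (B16F10-BrM against 482N1) was also lost with upper-quartile factors (adjusted p = 0.0726), and Sema6b in the same comparison was gained without 482N1 B or B16F10-BrM A (0.0270 and 0.0403); the cause was not tested. With a replicate block for the library letter, 8 and 22, 9 and 19, and 16 and 12 members were higher and lower in the 3 comparisons, as without it. Libraries with the same letter correlated in their deviations by -0.0099 to 0.0898, not over 0.1 in every pair, so the letters were not taken to pair samples. Depth limits genes near 0: with 1 to 3 counts in a line, the counting interval of the ratio spans over 10-fold.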
